A study of Arabidopsis thaliana with 6 samples.

Results

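The transcripts of long non-coding RNA and pseudogene loci were measured in leaves of Arabidopsis thaliana, in the wild type and in the quadruple mutant ddcc. In ddcc plants the genes DRM1, DRM2, CMT2 and CMT3 are all mutated, and both genotypes were in the Col-0 background and 28 days old. The loci were taken from a table of raw read counts for 62524 genes and transposable elements. They are the nuclear gene entries whose name lacks the annotation suffix that marks the other 27650 genes, and which reached a mean of at least 10 counts over the 3 wild-type or over the 3 ddcc libraries. Of 3674 such entries, 240 (6.53%) met that mean. Because the counts themselves chose these 240 loci, the number of loci on either side of the minimum is a description of the choice.

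Long non-coding RNAs are transcripts without a long reading frame, and pseudogenes are copies of genes that have lost their coding capacity but may still be transcribed. Many such loci in plants lie among repeats and old transposons. The mutated genes encode DNA methyltransferases that maintain or place methyl groups at cytosines outside the CG dinucleotide: CMT3 at CHG sites, CMT2 mainly at CHH sites, and DRM1 and DRM2 in the pathway guided by small RNAs, where H stands for A, C or T. Such methylation is known for keeping transposons and repeats silent. The comparison asks which of these loci differ in transcript level when all 4 enzymes are mutated.

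Each genotype was represented by 3 libraries of polyadenylated leaf RNA, with totals between 15188586 and 17644256 counts for the wild type and between 17265251 and 18809306 for ddcc. Of the targeted genes, DRM2 had 282 to 307 wild-type counts, against 141 to 164 in ddcc. CMT3 had 150 to 164 and 49 to 62 counts, and CMT2 had 235 to 261 and 186 to 221 counts. DRM1 had 0 or 1 count in every library, so it gave no check of the labels. The leaf markers RBCS1A, LHCB1.3, LHCB2.1 and RCA summed to 829114 to 971744 counts per wild-type library and 900514 to 983106 per ddcc library. Within this sum LHCB2.1, a light-harvesting protein gene, was lower in ddcc, with 25047 to 27494 counts against 40977 to 47402. The 4 flower markers summed to 3 to 10 wild-type counts, against 3 to 5 in ddcc, and the 3 seed markers to 0 to 5 and 2 to 3. The flower marker AP1 and the pollen marker VGD1 were at 0 in all 6 libraries. The labels do not say whether replicates came from separate plants, so the p-values measure the spread between these libraries, which may be technical. In whole leaves, fewer cells of a type and less RNA per cell cannot be told apart.

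By annotation, the 240 loci were 92 transcribed pseudogenes and 1 other pseudogene, 89 loci of the class ncRNA, 55 of the class lncRNA, 1 antisense RNA and 2 ribosomal RNA loci. The ribosomal loci are not long non-coding RNAs in the usual sense and stayed in the set because the rule does not exclude them. The share of loci that reached 10 counts was 40.3% of 221 ncRNA loci, 9.94% of 926 transcribed pseudogenes and 2.25% of 2444 lncRNA loci. No read was counted in any library for 2679 of the 3674 loci, of which 1941 were lncRNA loci. In the following, the lncRNA, ncRNA and antisense loci form the long non-coding RNA class (145 loci), beside a pseudogene class of 93 loci.

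Of the 240 loci, 188 reached the mean of 10 counts in both genotypes, 39 in ddcc alone and 13 in wild type alone. The 39 comprised 27 long non-coding RNAs and 12 pseudogenes, and the 13 comprised 5 and 8. A locus that reached the minimum in 1 genotype alone had to differ in mean count, so these 52 loci are given by their counts and without a test. Just outside the minimum lay AT2G09315 with means of 0 in wild type and 9.33 in ddcc, AT1G49370 with 6.33 and 9.33, and AT5G24206 with 2 and 9.67. Just inside lay AT1G09647 with means of 6.33 and 10, AT1G07023 with 0 and 10, and AT4G07665 with 6.67 and 10.

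**Figure D1:**
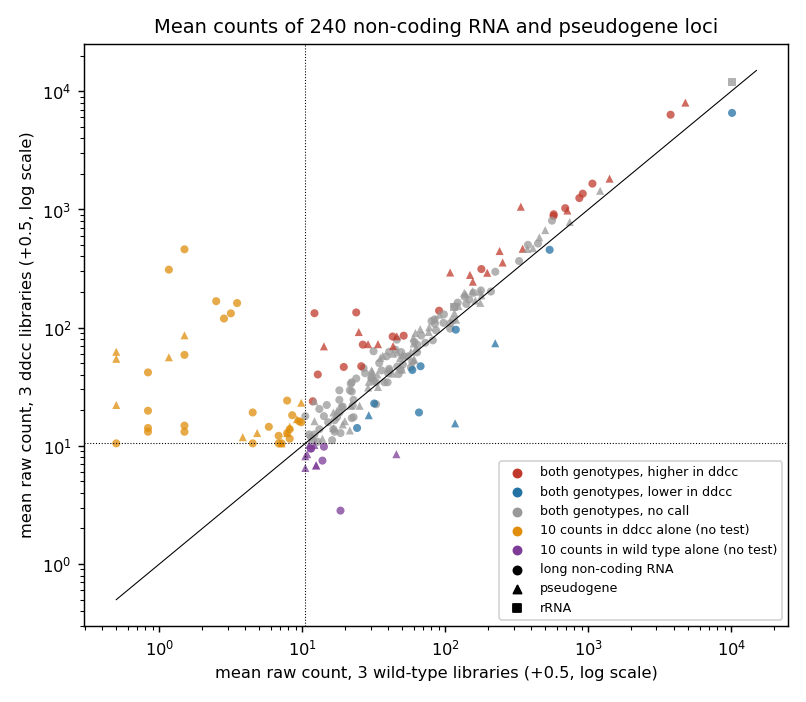
Mean raw count of each of the 240 loci in the 3 wild-type libraries (horizontal axis) and the 3 ddcc libraries (vertical axis), both on a log scale after adding 0.5, with dotted lines at the minimum of 10 counts and a diagonal at equal counts. Circles are long non-coding RNAs, triangles pseudogenes and squares ribosomal RNA, and the 39 loci at the upper left reached the minimum in ddcc alone.

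At least 1 count was found for 569 ± 8.74 of the 3674 loci per wild-type library and for 629 ± 25.3 per ddcc library (SD, n = 3 each). The wild-type libraries lay between 559 and 576 loci and the ddcc libraries between 602 and 652, without overlap. At the depth of the shallowest library the expected numbers were 556 ± 7.85 and 597 ± 24.2. At full depth, 268 ± 10.02 and 305 ± 14.8 loci had at least 5 counts. The difference of 60.7 loci was thus 41.1 at equal depth, and 36.3 with 5 counts at unequal depth. The 240 loci together took 0.311%, 0.322% and 0.328% of all wild-type counts, against 0.344%, 0.368% and 0.375% in ddcc. The 95% Wilson intervals of these shares were between 0.308% and 0.331% in wild type, between 0.341% and 0.378% in ddcc, and cover counting error only. Without the 5 loci with the most counts the mean shares were 0.136% and 0.172%. The shares are descriptions, since the 240 loci were chosen on the same counts. The numbers of loci with a count are over all 3674 entries, chosen by name, and their difference was not tested.

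Among the 188 loci with at least 10 counts in both genotypes, 35 rose in ddcc (18.6%), 11 fell (5.85%) and 142 gave no call. A call is an adjusted p under 0.05 in edgeR's quasi-likelihood test with Benjamini-Hochberg adjustment over all 18498 tested features. Among the 17521 suffixed genes with the same minimum, 14.4% rose and 12.8% fell. The share that rose was near that background, and the share that fell was below it, a difference that was not tested. The median log2 fold change (ddcc over wild type) was 0.09 over the 188 loci and −0.01 over the suffixed genes. Changes of at least 1 on the log2 scale passed the test for 10 of the 188 loci upward and 3 of the 188 downward. Of the 17521 suffixed genes, 257 (1.47%) rose and 200 (1.14%) fell by that much. The share of loci with such rises was thus above that of the suffixed genes, a difference that was not tested. The 188 loci had a median mean count of 54.8, against 270.1 for the suffixed genes, and the part of this lower count in the shares was not tested. The CPM values of the genotypes did not overlap at 76 of the 188 loci, among them all 46 called loci. Calls and overlap come from the same counts, so this adds no support to the calls. The share without overlap among suffixed genes was not computed, so the 76 loci cannot be set against a background. The number of loci that fell was 6 without wild-type replicate 3, 6 without ddcc replicate 3 and 6 with DESeq2. In these settings 9.48%, 8.85% and 9.42% of the suffixed genes with the same minimum fell.

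The long non-coding RNA class held 113 of the 188 loci, of which 18 rose (15.9%) and 8 fell (7.08%). The pseudogene class held 73, of which 17 rose (23.3%) and 3 fell (4.11%). Within the first class, 4 of 35 lncRNA loci rose and 1 fell, and 14 of 78 ncRNA loci rose and 7 fell. Among the suffixed genes with the same minimum, 14.4% rose and 12.8% fell. The share of long non-coding RNAs that rose was near that background, and the share of pseudogenes that rose was above it. The differences between classes and from the background were not tested. The number of long non-coding RNAs that fell was 4 without wild-type replicate 3, 4 without ddcc replicate 3, 5 without wild-type replicate 2 and 5 without ddcc replicate 1.

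The lncRNA locus AT4G06265 on chromosome 4 had the largest fitted rise among these 188 loci. It had wild-type counts of 9, 12 and 14, against 158, 122 and 116 in ddcc. All ddcc libraries were far above all wild-type libraries, with a log2 fold change of 3.29 (SE 0.22, adjusted p = 2.4e-06). The locus (TAIR10.1, chr4:8460579-8461333, plus strand) overlaps the hairpin gene MIR4221 on the same strand over 11.1% of its exon and the annotated RNA AT4G06275 on the opposite strand over 68.3%. Neither of these had a row of its own in the count table, and the sources used here do not say whether strand was used in counting, so the reads cannot be assigned among the 3. The mature miR4221 lies just before the annotated start of AT4G06265 at chr4:8460536-8460557, and is shown here with its seed, bases 2 to 8, in capitals.
miR4221: tTTTCCTCtgttgaattcttgc

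AT2G24160 and AT3G48650 were the pseudogenes with the highest levels among the large rises. AT2G24160 had wild-type counts of 325, 314 and 372, against 1058, 995 and 1111 in ddcc, a log2 fold change of 1.45 (SE 0.09, adjusted p = 1.6e-06). Its nearest gene HHP3, 401 bp away, fell by 0.27 on the log2 scale (SE 0.07, adjusted p = 0.0161). AT3G48650 had wild-type counts of 114, 108 and 101, against 300, 317 and 260 in ddcc, a log2 fold change of 1.25 (SE 0.11, adjusted p = 2.3e-05). The libraries of both loci formed compact groups that stood far apart.

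Neighbouring pseudogenes on chromosome 2, AT2G15030 and RLP18 (AT2G15040), 992 bp apart, both rose. RLP18 is annotated as a pseudogene of the receptor-like protein family, whose members sit in the plasma membrane and include immune receptors. AT2G15030 had wild-type counts of 20, 26 and 27, against 111, 86 and 77 in ddcc (log2 fold change 1.71, SE 0.21, adjusted p = 0.000185). RLP18 had wild-type counts of 176, 117 and 152, against 282, 328 and 227 in ddcc (log2 fold change 0.73, SE 0.17, adjusted p = 0.00894), and it was picked out after its values were seen because it adjoins AT2G15030. AT2G15030 overlaps 2 annotated genes on the other strand, AT2G06345 and AT2G15029, and both were at 0 in all 6 libraries. Near-identical sequence covers 23.8% of the exons of RLP18, with 10 matches in the genome. AT2G06355 overlaps RLP18 on the other strand over 10.4% of its exons.

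The ncRNA AT4G04223 had wild-type counts of 22, 24 and 24, against 126, 138 and 138 in ddcc (log2 fold change 2.33, SE 0.16, adjusted p = 3.4e-06). Near-identical sequence elsewhere in the genome covers 92.6% of its exons, with a best match of 99.4% identity over 308 bases at AT3G56210. Reads from the copies may therefore be counted with its own. RLP46, a receptor-like protein gene 565 bp from it, rose by 0.35 on the log2 scale (SE 0.10, adjusted p = 0.0245).

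The pseudogene AT1G21525 had wild-type counts of 19, 11 and 11, against 56, 85 and 66 in ddcc (log2 fold change 2.15, SE 0.28, adjusted p = 0.000268). Its nearest gene AT1G21520, 2148 bp away, also rose, by 0.60 (SE 0.10, adjusted p = 0.00136). The ncRNA AT3G61198 had wild-type counts of 15, 14 and 8, against 26, 52 and 41 in ddcc (log2 fold change 1.5, SE 0.34, adjusted p = 0.00812). Its nearest gene AT3G61200, 856 bp away, fell by 0.25 (adjusted p = 0.0254). The lncRNA AT5G03615 had wild-type counts of 31, 24 and 23, against 72, 52 and 90 in ddcc (log2 fold change 1.26, SE 0.22, adjusted p = 0.00187). Its nearest gene HMGB6, 991 bp away, fell by 0.39 (adjusted p = 0.0372). In both AT3G61198 and AT5G03615, the ddcc libraries were more scattered than the wild-type libraries, yet each was above them.

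AOP2 (AT4G03060) had the largest fitted fall. AOP2 encodes a dioxygenase that forms the alkenyl side chain of glucosinolates, the sulphur-rich defence compounds of the cabbage family, and the annotation lists the Col-0 copy as a truncated, non-functional pseudogene. It had wild-type counts of 161, 111 and 78, against 6, 28 and 11 in ddcc, a log2 fold change of −3.12 (SE 0.39, adjusted p = 0.000234). Without ddcc replicate 2, the library with 28 counts, the log2 fold change was −3.97. The lowest wild-type library was above the highest ddcc library, and the libraries of each genotype were spread widely.

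The pseudogene AT2G04110 had wild-type counts of 245, 216 and 208, against 67, 73 and 80 in ddcc (log2 fold change −1.79, SE 0.11, adjusted p = 1.5e-06). The lncRNA AT4G06115 had wild-type counts of 64, 68 and 63, against 23, 14 and 19 in ddcc (log2 fold change −1.98, SE 0.20, adjusted p = 5.2e-05). Its neighbour AT4G13572, 114 bp away, fell too, by 1.21 on the log2 scale (SE 0.12, adjusted p = 3.7e-05). AT1G28620 had wild-type counts of 32, 23 and 31, against 24, 14 and 15 in ddcc (log2 fold change −0.89, SE 0.27, adjusted p = 0.0329), and its neighbour AT1G28610, 273 bp away, fell by 0.74 (SE 0.14, adjusted p = 0.00266).

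A further 3 called falls among those named were small and rested on few counts. The called fall of AT4G13495, with many counts, is given below. AT3G52748 had wild-type counts of 25, 22 and 24, against 14, 14 and 13 in ddcc (log2 fold change −0.97, SE 0.25, adjusted p = 0.0133). The ncRNA AT3G52742, which overlaps it on the opposite strand, was at 0 in all 6 libraries. AT4G16892 had wild-type counts of 74, 57 and 69, against 52, 50 and 38 in ddcc (log2 fold change −0.70, SE 0.18, adjusted p = 0.0162). It lies 350 bp from SNC1, an immune receptor gene of the nucleotide-binding, leucine-rich repeat type, and SNC1 rose by 0.38 on the log2 scale (SE 0.05, adjusted p = 0.000527). The locus that carries the symbol ZPR4 (AT2G36307) had wild-type counts of 33, 30 and 31, against 26, 22 and 19 in ddcc (log2 fold change −0.67, SE 0.22, adjusted p = 0.0419). ZPR4 belongs to the LITTLE ZIPPER family, whose small proteins bind transcription factors of leaf polarity, although the annotation used here lists the locus as ncRNA.

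These weak falls did not hold in every setting. With edgeR the adjusted p of ZPR4 was 0.0577 to 0.136 when any 1 of the 6 libraries was left out. AT1G28620 had adjusted p = 0.0983 without wild-type replicate 1, 0.117 without wild-type replicate 3, 0.0808 without ddcc replicate 2 and 0.111 without ddcc replicate 3. AT4G16892 had adjusted p = 0.0601 without wild-type replicate 1, 0.0644 without wild-type replicate 3 and 0.0632 without ddcc replicate 3. AT3G52748 had adjusted p = 0.0532 without wild-type replicate 3. With DESeq2 the adjusted p was 0.195 for ZPR4, 0.104 for AT1G28620 and 0.0962 for AT3G52748.

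**Figure D2:**
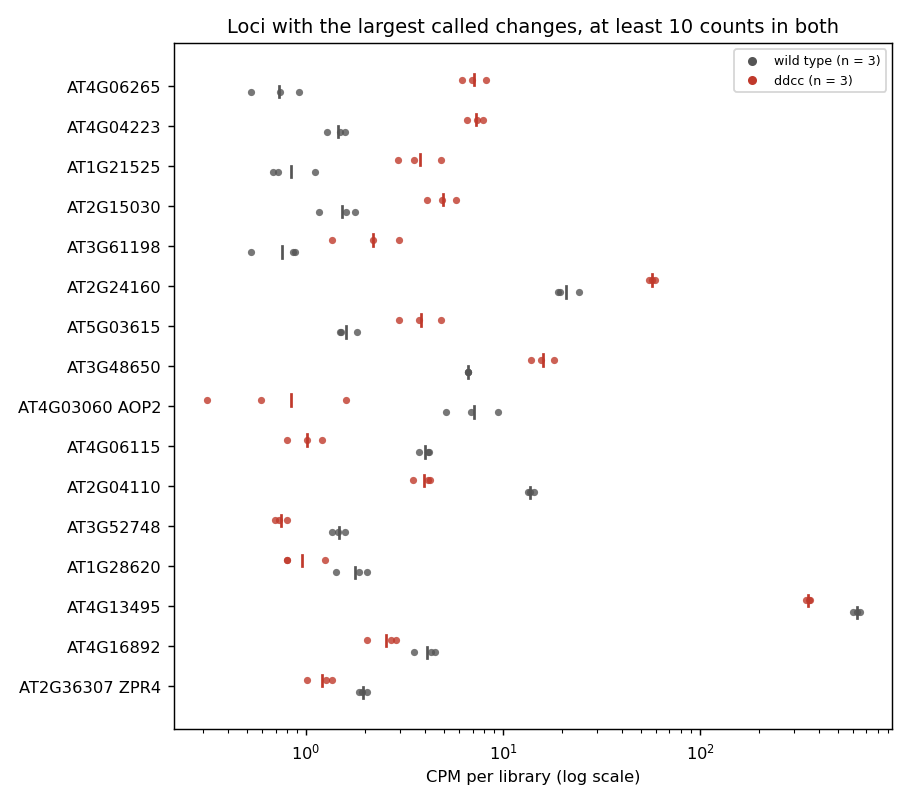
CPM, the count scaled to the library size (log scale), in each library for the 8 loci with the largest called rise and the 8 with the largest called fall among loci with at least 10 counts in both genotypes, with points for libraries and ticks for means. The genotypes do not overlap at any of the 16 loci, which the choice of loci required. The gap is widest at AT4G06265 and narrowest at the loci with small falls.

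The most abundant long non-coding RNA, AT4G13495, fell. It had wild-type counts of 11102, 10222 and 9063, against 6919, 6265 and 6488 in ddcc, a log2 fold change of −0.81 (SE 0.05, adjusted p = 1.6e-06). CPM is the count scaled to the library size. Per kilobase of exon its mean level was 599 CPM in wild type, against 341 CPM in ddcc. The locus (chr4:7842967-7846774, plus strand) shares its strand with 3 microRNA genes. MIR5026 and MIR850 lie in its introns, and MIR863 overlaps 17.1% of its exon length and runs past its end. MicroRNA genes had no rows in the count table, so their precursors and mature forms were not analysed here. The mature microRNAs are shown with the seed in capitals, and all 4 seeds differ from each other. The sequence of miR863-3p (chr4:7846835-7846855) lies beyond the annotated end of AT4G13495.
miR5026: aCTCATAAgatcgtgacacgt
miR850: tAAGATCCggactacaacaaag
miR863-5p: tTATGTCTtgttgatctcaat
miR863-3p: tTGAGAGCaacaagacataat

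In all, 7 of the 240 loci overlap a microRNA gene on either strand. Besides AT4G13495 and AT4G06265 these are AT2G26220 with MIR825, AT3G18145 with MIR3440b, TAS1B with MIR5636, and AT4G04408 and AT4G04409, which lie on opposite strands and both overlap MIR841b.

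The next most abundant loci rose. GUT15 (AT2G18440), first described as an RNA that decays fast, had wild-type counts of 4169, 3861 and 3263, against 6631, 5769 and 6588 in ddcc, a log2 fold change of 0.56 (SE 0.06, adjusted p = 6.6e-05). The pseudogene AT1G79245 had wild-type counts of 5088, 4537 and 4697, against 8558, 7472 and 8019 in ddcc (log2 fold change 0.56, SE 0.05, adjusted p = 3.4e-05). In both loci every ddcc library was well above every wild-type library. The pseudogene AT4G04692 had wild-type counts of 1515, 1376 and 1335, against 1975, 1756 and 1735 in ddcc (log2 fold change 0.18, SE 0.06, adjusted p = 0.0317). Its adjusted p was between 0.0572 and 0.107 when wild-type replicate 1, 2 or 3 or ddcc replicate 1 or 2 was left out.

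The locus with the most counts was AT3G41768, an 18S-type ribosomal RNA gene. It had wild-type counts of 10936, 9151 and 10346, against 11738, 13936 and 10041 in ddcc, with a log2 fold change of 0.05 (SE 0.12, adjusted p = 0.803). The genotypes overlapped. Its whole exon lies in a copy with 99.9% identity at AT2G01010, so the count belongs to the repeat as the authors' counting divided it.

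The precursors of trans-acting small interfering RNAs (ta-siRNAs) gave no call. A microRNA directs cleavage of these transcripts, RDR6 and SGS3 then make them double-stranded, and DCL4 dices them into ta-siRNAs in phase. Of 8 listed precursors, 5 were tested. TAS1A had wild-type counts of 35, 51 and 34, against 35, 52 and 41 in ddcc, with a log2 fold change of −0.09 (SE 0.24, adjusted p = 0.814). TAS1B had wild-type counts of 39, 33 and 21, against 26, 38 and 41 in ddcc (0.00, SE 0.26, adjusted p = 0.993). TAS1C had wild-type counts of 55, 75 and 51, against 62, 75 and 89 in ddcc (0.13, SE 0.20, adjusted p = 0.657). AT2G39670, which overlaps TAS1C on the opposite strand over 3.13% of its exon, gave no call (−0.25, SE 0.09, adjusted p = 0.0627). The libraries of the genotypes overlapped at TAS1A, TAS1B and TAS1C.

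TAS2, whose ta-siRNAs target pentatricopeptide repeat genes, had wild-type counts of 109, 115 and 124, against 159, 137 and 155 in ddcc (log2 fold change 0.18, SE 0.12, adjusted p = 0.284). TAS3, whose ta-siRNAs target auxin response factor genes, had wild-type counts of 108, 99 and 83, against 105, 98 and 125 in ddcc (−0.01, SE 0.13, adjusted p = 0.968). In CPM the genotypes overlapped at TAS2 and at TAS3 as well. No difference was detectable at these counts, and the standard errors of 0.12 to 0.26 leave room for small ones. The sign of the estimate for TAS1A, TAS1B and TAS3 turned when single libraries were left out, and for TAS1B and TAS3 also with library totals in place of TMM factors. TAS3B and TAS3C were at 0 in all libraries and TAS4 had 1 count in 1 ddcc library.

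TAS1A, TAS1B, TAS1C and TAS2 share a target site of miR173. The mature microRNA (chr3:8236161-8236182) is shown with its seed in capitals, followed by the sites. In the sites, capitals mark the bases that do not pair with the microRNA by Watson-Crick rules, of which there are 2, 3, 2 and 2.
miR173-5p: tTCGCTTGcagagagaaatcac
TAS1A: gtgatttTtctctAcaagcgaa
TAS1B: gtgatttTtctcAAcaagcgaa
TAS1C: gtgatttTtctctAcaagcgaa
TAS2: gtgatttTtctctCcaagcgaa

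TAS3 is targeted by miR390 instead. Its best match to the microRNA (chr3:5862099-5862119) has 5 bases that do not pair by Watson-Crick rules, in capitals. G:U pairs are counted among them.
miR390a-5p: aAGCTCAGgagggatagcgcc
TAS3: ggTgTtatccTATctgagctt

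Of the 7 listed genes that make ta-siRNAs, DCL4, the enzyme that dices the precursors, rose by 0.34 on the log2 scale (adjusted p = 0.00619), and AGO1, which carries the microRNA that cleaves TAS1 and TAS2, fell by 0.20 (adjusted p = 0.0310). The other 5 gave no call. Of all tested features, 15.5% rose and 12.7% fell.

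Of 24 tested genes of RNA decay and non-coding RNA processing, 5 rose and 2 fell, beside 15.5% and 12.7% of all tested features. The difference from these shares was not tested. The median log2 fold change over the 24 genes was 0.10. The nuclear exoribonuclease genes XRN2 and XRN3 rose by 0.24 (adjusted p = 0.00891) and 0.20 (adjusted p = 0.00892). UPF3, a nonsense-mediated decay factor, rose by 0.23 (adjusted p = 0.0116), the exosome-associated RRP6L1 by 0.29 (adjusted p = 0.0424), and SE, which acts in microRNA processing, by 0.19 (adjusted p = 0.0387). The cap-binding protein gene CBP80 fell by 0.56 (adjusted p = 0.000574), from 518, 504 and 405 counts to 409, 343 and 346. FRY1, whose product clears a nucleotide that inhibits the XRN enzymes, fell by 0.58 (adjusted p = 0.000571), from 469, 417 and 399 counts to 299, 335 and 343. The number that rose was 3 without wild-type replicate 1, 3 without ddcc replicate 1, 3 without ddcc replicate 3 and 3 with DESeq2.

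**Figure D3:**
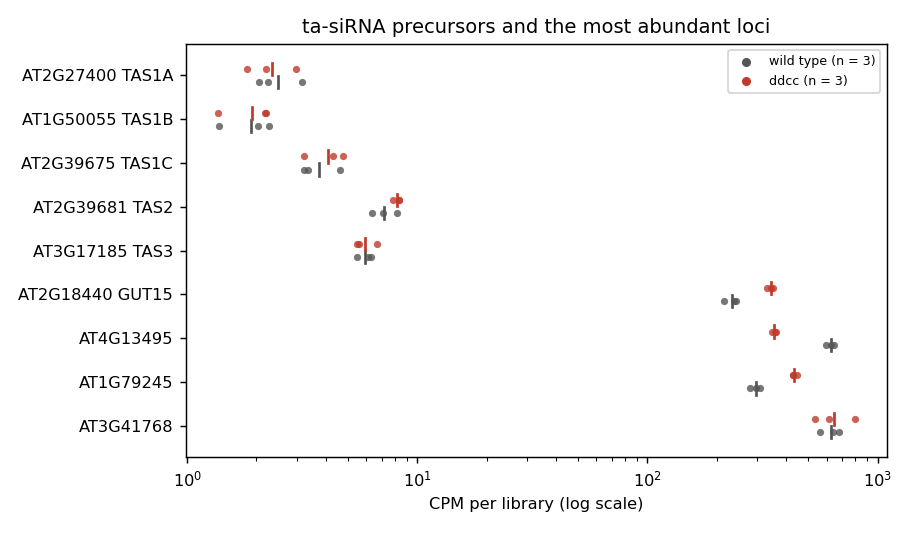
CPM (log scale) in each library for the 5 ta-siRNA precursors and for 4 abundant loci, with points for libraries and ticks for means. The 5 precursors and AT3G41768 overlap between the genotypes. GUT15 and AT1G79245 are higher in all 3 ddcc libraries, and AT4G13495 is lower in all 3.

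Of 9 regulatory long non-coding RNAs from the literature, 7 had a row and 4 were tested. GUT15 is described above and AT1G67105 follows. The phosphate-starvation RNA AT4 (AT5G03545) had wild-type counts of 8, 10 and 14, against 7, 24 and 48 in ddcc, with a log2 fold change of 1.11 (SE 0.58, adjusted p = 0.182). Its ddcc libraries were scattered from below to above the wild-type libraries. IPS1, which like AT4 sequesters the phosphate-starvation microRNA, had 1 count in all. AT2G34655, whose name carries the suffix and which is therefore not among the 240, had wild-type counts of 64, 58 and 79, against 1030, 1057 and 1009 in ddcc (log2 fold change 3.75, SE 0.12, adjusted p = 6.3e-09).

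The 39 loci that reached 10 counts in ddcc alone ranged from loci near the minimum in both genotypes to loci with hardly a read in wild type. In 16 of them the wild-type mean was 5 counts or more. In 15 every wild-type library had at most 3 counts, and 4 had no wild-type read at all. For the loci named next, ratios are of summed counts over summed TMM-scaled library totals, with an exact conditional 95% interval that covers counting error only and not the spread between libraries.

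AT2G01422, an ncRNA on chromosome 2, had wild-type counts of 0, 1 and 2, against 463, 457 and 459 in ddcc. The ddcc libraries were close together, and the ratio was 403 (138 to 1959). Its denominator is 3 reads, and the ratio was 261 without wild-type replicate 1 and 831 without wild-type replicate 3. It lies 176 bp from PIN4, an auxin efflux carrier gene, which had wild-type counts of 2779, 2487 and 2355, against 1921, 2029 and 2392 in ddcc and fell by 0.45 on the log2 scale (SE 0.08, adjusted p = 0.00194).

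AT1G26558 had wild-type counts of 4, 0 and 2, against 168, 156 and 177 in ddcc, a ratio of 73.3 (33.4 to 201). The ratio was 142 without wild-type replicate 1 and 48.8 without wild-type replicate 2. Near-identical sequence covers 74.3% of its exons, with 8 matches in the genome. BGLU40, a beta-glucosidase gene 614 bp from it, fell by 1.11 on the log2 scale (SE 0.11, adjusted p = 3.9e-05), from 341, 378 and 334 counts to 210, 147 and 201. AT1G67105 had wild-type counts of 4, 2 and 3, against 179, 157 and 147 in ddcc, a ratio of 47.1 (24.6 to 104). Its nearest gene LBD40, 2615 bp away, had 1 count in all 6 libraries together.

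AT2G15555 stood apart because its ddcc libraries disagreed. It had wild-type counts of 2, 0 and 0, against 320, 557 and 50 in ddcc, a ratio of 407 (112 to 3364). The interval does not include the spread between the ddcc libraries, and the ratio was 237 without ddcc replicate 2 and 581 without ddcc replicate 3. Without wild-type replicate 1 no wild-type read is left.

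The lncRNA AT4G03875 had wild-type counts of 3, 4 and 1, against 177, 107 and 111 in ddcc, a ratio of 43.3 (21.8 to 101). The lncRNA AT1G06993 had wild-type counts of 1, 5 and 1, against 144, 105 and 108 in ddcc, a ratio of 44.8 (21.5 to 112), which was 104 without wild-type replicate 2. Its nearest gene AT1G36675, 2724 bp away, had wild-type counts of 2, 5 and 1, against 158, 135 and 120 in ddcc. The pseudogene AT2G16310 had 1 read per wild-type library, against 81, 83 and 93 in ddcc, a ratio of 75.2 (25.4 to 367). The pseudogene AT2G20910 had no wild-type read and 72, 51 and 63 counts in ddcc, so it was at least 54.4-fold higher in ddcc when 3 counts over the 3 wild-type libraries are taken as the floor. The exact interval of its ratio began at 43.8.

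Of the nearest genes of these 39 loci 21 were tested, of which 6 rose (28.6%), 3 fell (14.3%) and 12 gave no call, beside 15.5% and 12.7% of all tested features. The nearest genes were taken from all gene entries, so a nearest gene can itself belong to the 39. Such genes were chosen for their ddcc counts, so these shares cannot be read against that background, and the difference was not tested. Some of the 39 were neighbours of each other. AT4G04408, AT4G04409 and AT4G04865 lie within one stretch of chromosome 4, with gaps of 19 and 3388 bp, and AT1G07023 and AT1G07027 lie 2140 bp apart on chromosome 1, so these loci are not independent observations.

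The 13 loci that reached the minimum in wild type alone were mostly close to it in both genotypes, and in 12 the ddcc mean was 5 counts or more. The pseudogene AT5G34795 had wild-type counts of 53, 30 and 52, against 9, 9 and 6 in ddcc, 6.41-fold higher in wild type (4.13 to 10.3). Near-identical sequence elsewhere on chromosome 5 covers 66.4% of it. The ncRNA AT2G06002 had wild-type counts of 18, 19 and 17, against 3, 2 and 2 in ddcc, 8.79-fold higher in wild type (3.99 to 22.9). At both loci the genotypes were clearly apart. The other 6 with the most counts, AT5G38005, AT1G04037, AT3G30214, AT4G17915, AT5G35738 and AT2G15128, had ratios of wild type over ddcc from 1.38 to 2.17.

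**Figure D4:**
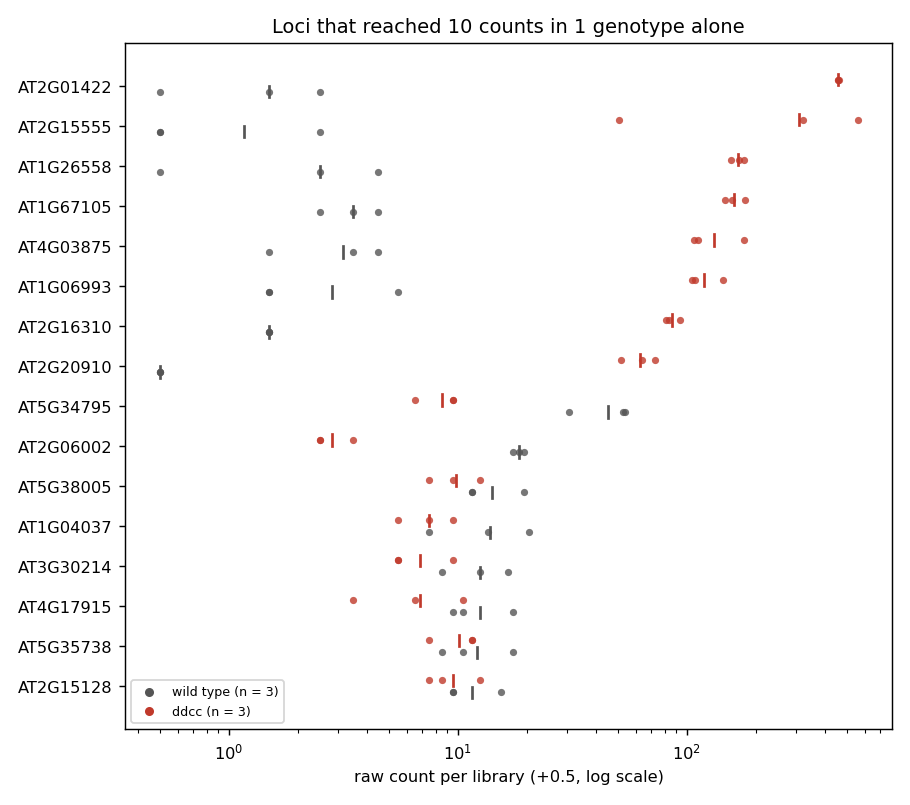
Raw count (log scale after adding 0.5) in each library for the 8 loci with the most counts among those that reached 10 counts in ddcc alone (upper rows) and in wild type alone (lower rows), with points for libraries and ticks for means. The upper 8 loci have at most 5 counts in any wild-type library, whereas only AT5G34795 and AT2G06002 of the lower 8 show genotypes far apart.

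The promoters of 6 of these loci are shown because the mutated enzymes act on cytosines by their context. They are the 4 loci with the most ddcc counts among those that reached 10 counts in ddcc alone, and the loci with the largest fitted rise and fall among those with 10 counts in both genotypes. Each window holds the 250 bases before and the 50 bases from the start of the annotated transcript, on the transcript's strand, from RefSeq TAIR10.1. Capitals mark CAG and CTG, which are CHG sites. At least 1 of these triplets occurs in 97.0% of the 31112 gene promoters of the table, with a median of 4, so their presence sets none of the 6 apart. Counting both strands, AT2G01422 has 6 CG, 5 CHG and 71 CHH cytosines, AT2G15555 has 8, 5 and 46, AT1G26558 has 18, 26 and 53, AT1G67105 has 12, 14 and 71, AT4G06265 has 10, 21 and 80, and AOP2 has 8, 2 and 71. The medians over all promoters were 12, 10 and 72. AT1G26558, AT1G67105 and AT4G06265 were above the CHG median, and AT2G01422, AT2G15555 and AOP2 were below it, so loci with more ddcc counts lay on both sides. The window of AT4G06265 contains the mature miR4221 printed above.
AT2G01422, chr2:183690-183989, plus strand: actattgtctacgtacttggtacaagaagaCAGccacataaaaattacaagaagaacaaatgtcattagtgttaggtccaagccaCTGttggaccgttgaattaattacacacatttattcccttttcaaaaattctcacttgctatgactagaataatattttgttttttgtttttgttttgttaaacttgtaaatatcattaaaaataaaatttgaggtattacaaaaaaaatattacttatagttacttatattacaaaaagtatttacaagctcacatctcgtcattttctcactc
AT2G15555, chr2:6786927-6787226, minus strand: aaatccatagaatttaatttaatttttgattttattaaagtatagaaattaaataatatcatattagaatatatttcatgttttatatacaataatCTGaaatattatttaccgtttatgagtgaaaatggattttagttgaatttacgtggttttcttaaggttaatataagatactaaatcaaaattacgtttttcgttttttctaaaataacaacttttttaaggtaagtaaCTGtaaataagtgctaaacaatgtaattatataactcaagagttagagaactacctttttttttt
AT1G26558, chr1:9175361-9175660, plus strand: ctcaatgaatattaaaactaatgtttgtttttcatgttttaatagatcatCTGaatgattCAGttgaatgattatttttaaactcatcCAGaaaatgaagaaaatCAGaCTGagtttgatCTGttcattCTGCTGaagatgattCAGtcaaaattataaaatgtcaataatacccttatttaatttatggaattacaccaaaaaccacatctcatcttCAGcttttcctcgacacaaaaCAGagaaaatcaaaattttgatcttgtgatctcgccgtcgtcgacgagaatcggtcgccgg
AT1G67105, chr1:25057229-25057528, plus strand: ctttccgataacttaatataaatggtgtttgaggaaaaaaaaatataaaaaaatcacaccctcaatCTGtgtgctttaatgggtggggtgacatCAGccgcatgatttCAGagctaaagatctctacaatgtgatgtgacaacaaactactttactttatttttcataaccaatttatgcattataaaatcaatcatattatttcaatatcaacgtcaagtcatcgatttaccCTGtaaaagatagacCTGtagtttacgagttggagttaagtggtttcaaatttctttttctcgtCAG
AT4G06265, chr4:8460329-8460628, plus strand: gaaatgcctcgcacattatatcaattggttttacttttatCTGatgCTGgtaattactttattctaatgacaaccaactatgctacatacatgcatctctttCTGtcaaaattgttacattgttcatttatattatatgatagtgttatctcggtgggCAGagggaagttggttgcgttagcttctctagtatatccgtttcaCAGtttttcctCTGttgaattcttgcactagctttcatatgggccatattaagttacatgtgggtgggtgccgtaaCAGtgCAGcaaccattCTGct
AOP2, chr4:1354047-1354346, minus strand: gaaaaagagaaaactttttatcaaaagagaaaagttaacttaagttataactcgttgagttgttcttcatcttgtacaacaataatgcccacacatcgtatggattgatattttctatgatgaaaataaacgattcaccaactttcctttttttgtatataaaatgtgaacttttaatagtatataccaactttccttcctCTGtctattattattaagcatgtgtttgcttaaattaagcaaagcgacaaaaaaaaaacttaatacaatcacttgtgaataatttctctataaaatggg

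The median numbers of CG, CHG and CHH cytosines per promoter were 12, 10 and 75 for the 39 loci that reached 10 counts in ddcc alone, 14, 10 and 76 for the 35 that rose, 8, 9 and 75 for the 11 that fell, and 14, 12 and 75 for the 142 without a call. The median number of CG sites was lowest for the 11 loci that fell, and the differences between groups were not tested. These counts are of sequence alone, and methylation at these loci was not analysed here.

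The loci lay closer to the centromeres than suffixed genes did. A locus was counted as near when its middle was within 3 Mb of a centromere position rounded to whole megabases (15, 4, 14, 4 and 12 on chromosomes 1 to 5). Of all 3674 entries without the suffix 26.2% were near, of the suffixed genes 11.6%. Of the 240 loci 57 were near (23.8%). Of the loci that reached 10 counts in both genotypes 34 of 188 were near, in ddcc alone 17 of 39, and in wild type alone 6 of 13. Of the 34 near loci in both genotypes 9 rose (26.5%) and 2 fell, and of the 154 others 26 rose (16.9%) and 9 fell. Among 1358 suffixed genes that were near, with the same minimum, 16.0% rose and 13.0% fell. The difference between near and far loci was not tested, and 9 loci are too few to fix a share.

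**Figure D5:**
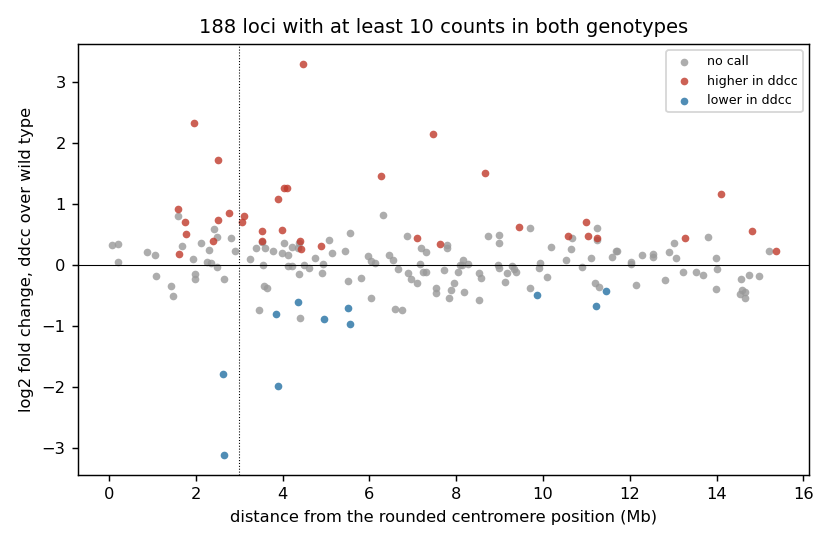
Log2 fold change (ddcc over wild type) against the distance of each locus from the rounded centromere position, in Mb, for the 188 loci with at least 10 counts in both genotypes, coloured by call, with a dotted line at 3 Mb. Called rises are spread over the whole range of distances, and 9 rises and 2 falls lie to the left of the line.

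Exons of 169 of the 240 loci overlapped no other annotated exon, 50 overlapped an exon on the opposite strand and 28 one on the same strand, 7 of them both. A near-identical copy, with at least 95% identity over at least 100 bases, was found for 42. Of the 108 loci with at least 10 counts in both genotypes that had neither an overlap nor a copy, 22 rose and 9 fell. Of the 32 with a copy 8 rose (25.0%), 0 fell and 24 gave no call. Among the suffixed genes with the same minimum, 14.4% rose and 12.8% fell. The differences from these shares, and between loci with and without a copy, were not tested. Leaving out loci with an overlap or a copy was chosen after the data were seen.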

How the data were processed

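Counts were taken from 1 table of whole-number read counts per gene and transposable element for 6 leaf libraries, which the authors deposited without normalization. Per the labels' protocols, polyadenylated RNA was purified from 500 ng of total RNA. Per the submitters' processing notes, reads were trimmed with Trim Galore 0.6.0 and cutadapt 1.15 and aligned with STAR 2.7.0f, and the build was TAIR10. Which program counted the reads, whether it used strand and how it handled reads with several matches are not given in the sources used here. Each library's genotype came from its title. A table of moss batches was not used here. Root markers are not reported here.

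The 240 loci and all lists were chosen with earlier results of these data known. Biotypes, exons, symbols, coordinates and sequences are from the RefSeq annotation of TAIR10.1, matched by locus name. Features were filtered with filterByExpr (minimum count 10), scaled with TMM factors and tested with edgeR 4.0.16 (R 4.3.3), genotype being the only term, over 18498 features. Every adjusted p is from this quasi-likelihood test with Benjamini-Hochberg adjustment unless DESeq2 1.42.0 is named, and calls are at 0.05. The standard error of a log2 fold change is its size over the square root of F. Of the 240 loci 222 passed the filter and 18 did not. CPM uses TMM-scaled totals, and 3 counts equalled 0.159 to 0.198 CPM of the library total. Intervals cover counting error only. Near-identical copies were found with BLASTN 2.17.0 (at least 95% identity over 100 bases).

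The text names the 5 loci with the most counts, the 8 largest called changes in each direction without overlap among loci with 10 counts in both genotypes, the 8 with the most counts in each group that reached 10 in 1 genotype alone, the listed loci, and those of their nearest genes that were called and genes whose exons overlap theirs. Any other locus named was chosen after its values were seen. Replicates differed by more than sampling noise (chi-square over its degrees of freedom, 3.32 to 7.65), so all 6 libraries were kept as replicates.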

Additional observations from a re-analysis of the deposited data

How the results depend on the processing

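Among loci with at least 10 counts in both genotypes, the 35 rises and 11 falls stayed within 1.5 times under other scalings and without the filter. The falls were 7 above a mean of 50 counts and 6 with DESeq2. With a log2 change of at least 1 there were 10 rises and 3 falls. Without loci that overlap another exon or have a copy, a setting added after the data were seen, 22 rises were left. Leaving out 1 library gave 28 to 34 rises and 6 to 13 falls. Among suffixed genes with the same minimum, 11.0% to 14.7% then rose and 8.85% to 12.8% fell. For long non-coding RNAs the 8 falls were 5 with a mean of 50 counts, 4 with DESeq2, 1 with a log2 change of at least 1 (5 rises then), and 4 to 9 without 1 library, with 15 to 18 rises. Pseudogene rises were 5 with a log2 change of at least 1 and 12 to 16 without 1 library, and falls 2 to 4. RNA decay genes that rose were 3 with DESeq2 and 3 to 6 without 1 library. The difference in loci with a count was 41.1 at equal depth, 36.3 with 5 counts and 49.3 to 74.3 without 1 library, and the difference in share was 0.0355 to 0.0509 percentage points. The cause of these moves was not tested.

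Log2 fold changes near 0 turned sign. Over the fits without 1 library, AT3G41768 ran from −0.126 to 0.168, TAS1A (AT2G27400) from −0.298 to 0.120, TAS1B (AT1G50055) from −0.181 to 0.195 and TAS3 (AT3G17185) from −0.105 to 0.0471. TAS1B was 0.0317 with library totals, 0.00357 without the filter and 0.00319 with DESeq2, and TAS3 was 0.0260 with library totals. ZPR4 had adjusted p = 0.0538 with library totals and 0.0644 without the filter (edgeR).

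Same-numbered libraries did not deviate together (correlations −0.10, −0.08 and 0.03). These values gave no sign that the numbers pair the libraries, but they cannot exclude a pairing. With the replicate number as a block, 41 loci were called, all among the 46, and ZPR4 had adjusted p = 0.0725 (edgeR).

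Loci with few counts and loci with copies or overlapping exons are the least certain, since strand use and the treatment of reads with several matches are unknown.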

Other observations

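Loci of the set that were not named by the rule but passed the test included a group of ncRNAs with modest rises. AT4G36648 had wild-type counts of 1182, 1002 and 1022, against 1681, 1519 and 1761 in ddcc (log2 fold change 0.44, SE 0.06, edgeR adjusted p = 0.000398). AT5G24735 had wild-type counts of 1010, 914 and 819, against 1386, 1254 and 1439 in ddcc (0.39, SE 0.06, adjusted p = 0.000688). AT2G31585 had wild-type counts of 177, 180 and 178, against 349, 276 and 313 in ddcc (0.62, SE 0.09, adjusted p = 0.000512). Near-identical sequence elsewhere covers 90.1% of its exons, with a best match of 96.6% identity over 656 bases at AT5G48412, so reads from the copy may be counted with its own. AT1G10682 went the other way, from 562, 532 and 515 wild-type counts to 515, 402 and 448 in ddcc (−0.43, SE 0.07, adjusted p = 0.00134), and its CPM values did not overlap although the raw counts met at 515. CYP71B18, a pseudogene of the cytochrome P450 family, had wild-type counts of 756, 649 and 737, against 967, 951 and 1019 in ddcc (0.27, SE 0.07, adjusted p = 0.0216). These loci were picked after their values were seen.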
